A study of Mus musculus with 4 samples.

Results

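The lysozyme genes Lyz2 and Lyz1 lie side by side on mouse chromosome 10. Their open chromatin was followed in macrophages of WT mice and of mice with a conditional knockout (cKO) of histone H3.3. Lyz1 and Lyz2 are 2 of 21951 protein-coding genes annotated. The peaks around them were taken from an interval of 116 kb, from 50 kb before the first gene to 50 kb after the second (chr10:117227331-117342868, mm10). Merging overlapping peaks of the 4 libraries gave 14 regions there, of 71243 in the genome, and these were numbered R1 to R14 along the chromosome. The genes were chosen because of their measured peaks: in an earlier reading of the same lists, Lyz2 held a wide WT peak that was reduced in the knockout. The WT against knockout values below are therefore a description, with no test.

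ATAC-seq, in which the transposase Tn5 cuts accessible DNA, was performed on bone marrow-derived macrophages (BMDMs), which are bone marrow cells grown into macrophages with L929-conditioned medium (20%). The cells were taken on day 7, and the labels give a culture of 6 to 8 days. WT BMDMs came from H3f3a fl/fl H3f3b fl/fl mice without Cre. H3.3 cKO BMDMs came from mice with the same floxed alleles and LysM cre/cre, whose Cre recombines the loxP sites around exon 2 of H3f3a and around exons 1 to 4 of H3f3b in myeloid cells. Both groups thus carried the floxed alleles, on a C57BL/6 background, and the mice were male and female and 8 to 10 weeks old. Each genotype had 2 libraries labelled as biological replicates, and whether each came from 1 animal was not stated. LysM cre carries the Cre coding sequence at the Lyz2 start codon, so a cre/cre mouse has no untargeted Lyz2 allele; the study writes cre/cre, and in a legend cre/+. At Lyz2 the loss of H3.3 and the targeted allele therefore cannot be told apart with these 4 libraries. The same holds for Lyz1 and the rest of the interval, which lie beside the targeted allele and are inherited with it.

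Lysozyme cleaves the peptidoglycan of bacterial cell walls. Mice have a pair of neighbouring lysozyme genes: Lyz2 encodes lysozyme M, an abundant product of macrophages and granulocytes, and Lyz1 encodes lysozyme P, made mainly by Paneth cells of the intestine. Lyz2 is a standard marker of myeloid cells, which is why its locus is used to drive Cre in them, and regulatory elements are known both upstream and downstream of the gene. H3.3 is the histone H3 variant placed in nucleosomes outside of replication, also at transcribed genes.

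Both genes are on the reverse strand and have 4 exons. Lyz2 (ENSMUSG00000069516.8) spans 117277331 to 117282321 and Lyz1 (ENSMUSG00000069515.6) spans 117287797 to 117292868, with a gap of 5475 bp between them and 10547 bp from start site to start site. Their coding sequences, of 447 bases, share 425 (95.1%). The 250 bases before the RefSeq start sites are shown here, 5′ to 3′ on the gene's strand, because Lyz2 had a peak over its start site in each of the 4 libraries and Lyz1 had none there. Capitals mark matches to 5 motifs searched on both strands: AACCACA (RUNX), TTGCNNAA (C/EBP), GAGGAAGT (PU.1), TGANTCA (AP-1) and CCGGAAG (ETS). The motifs do not share letters in these stretches.
Lyz2, chr10:117282273-117282522, GRCm38.p6: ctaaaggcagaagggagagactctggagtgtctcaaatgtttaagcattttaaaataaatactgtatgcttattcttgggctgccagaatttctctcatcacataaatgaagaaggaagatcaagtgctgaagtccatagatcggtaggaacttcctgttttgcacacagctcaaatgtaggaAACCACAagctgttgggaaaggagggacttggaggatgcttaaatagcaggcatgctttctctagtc
Lyz1, chr10:117292869-117293118, GRCm38.p6: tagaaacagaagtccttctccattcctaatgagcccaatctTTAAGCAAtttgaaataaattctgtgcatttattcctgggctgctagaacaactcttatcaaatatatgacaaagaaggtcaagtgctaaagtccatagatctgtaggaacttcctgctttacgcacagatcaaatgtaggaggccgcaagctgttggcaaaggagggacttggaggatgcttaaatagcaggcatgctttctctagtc
The Lyz2 stretch held a RUNX match 67 bases before its start site, and the Lyz1 stretch held a C/EBP match 209 bases before its own. Over the same 250 bases of all RefSeq promoters, 4.46% held a RUNX match and 9.55% a C/EBP match. The stretches were 79.4% identical over their length, and the 7 letters of the Lyz2 RUNX match were not all present in Lyz1.

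The WT lists held 55742 and 64939 peaks and the cKO lists 51955 and 60884, with read depths unknown. Peaks are called above a fixed limit in each library, so a peak missing from a list may lie just under that limit. The measure used was the peak area, which the peak caller computes from the −log10 p-value signal over a peak. Whether a limit is subtracted from that signal is not stated. The area is given as its percentile within its own list or divided by the median area of that list (relative area). At the floxed exon 2 of H3f3a, weak peaks in WT (percentiles 5.02 and 19.1) had no counterpart in either cKO list, which at this rank is a weak check of the genotype. The start site of H3f3b still had a peak in cKO, at 87.0 and 81.4 against 94.2 and 95.5 in WT. The paper states that deletion of H3f3b appeared variable, complete in some of its cKO samples and partial in others. How complete it was in these cKO libraries was not tested. Of 10 macrophage marker genes, 10 had a peak within 1 kb of a start site in each library, and of 5 T cell markers 0 had one. Of 5 neutrophil markers, 1 and 1 had one in WT and 2 and 2 in cKO (S100a8 in each library, Ly6g in cKO), and the B cell, erythroid and fibroblast lists had at most 2 of 5 in any library. Among granule genes of granulocyte precursors, Elane and Mpo had no peak in any library. Taken with 2 kb around the gene, Prtn3 had one in each (54.2 and 62.1 for WT, 40.0 and 47.1 for cKO) and Ctsg had one in cKO 1 (17.3) and cKO 2 (30.9). Lyz2 is itself expressed by granulocytes, and the part of other cells in the Lyz2 values was not tested.

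The interval around the lysozyme genes was less accessible in cKO. WT 1 held 13 peaks and WT 2 held 14, against 9 in cKO 1 and 11 in cKO 2 (13.5 ± 0.707 and 10.0 ± 1.41, SD, n = 2 per genotype). The covered length was 12217 and 13251 bp in WT and 3920 and 5340 bp in cKO, and the 2 genotypes did not overlap. The cKO mean was 0.364 of the WT mean, whereas the number of peaks was 0.741 of it. The median peak width overlapped, at 588 and 466 bp for WT and 389 and 536 bp for cKO. The summed relative area gave 37.0 and 42.3 in WT against 11.3 and 14.9 in cKO.

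Of the 14 regions, 9 were called in all 4 libraries, 3 were lost (called in both WT and in neither cKO), 0 were gained, and 2 were called in WT 2 alone. Over the genome 7.25% of the regions were lost and 3.72% gained. The strongest peak of each of the 9 shared regions ranked lower in both cKO lists than in both WT lists, and 0 ranked higher. Genome-wide, 35.1% of the 44820 shared regions were lower and 22.2% higher by the same rule. The 9 shared regions were also narrower in both cKO lists, as were 36.9% of the shared regions in the genome. Since the locus was chosen on this contrast, these shares are given for scale.

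**Figure D1:**
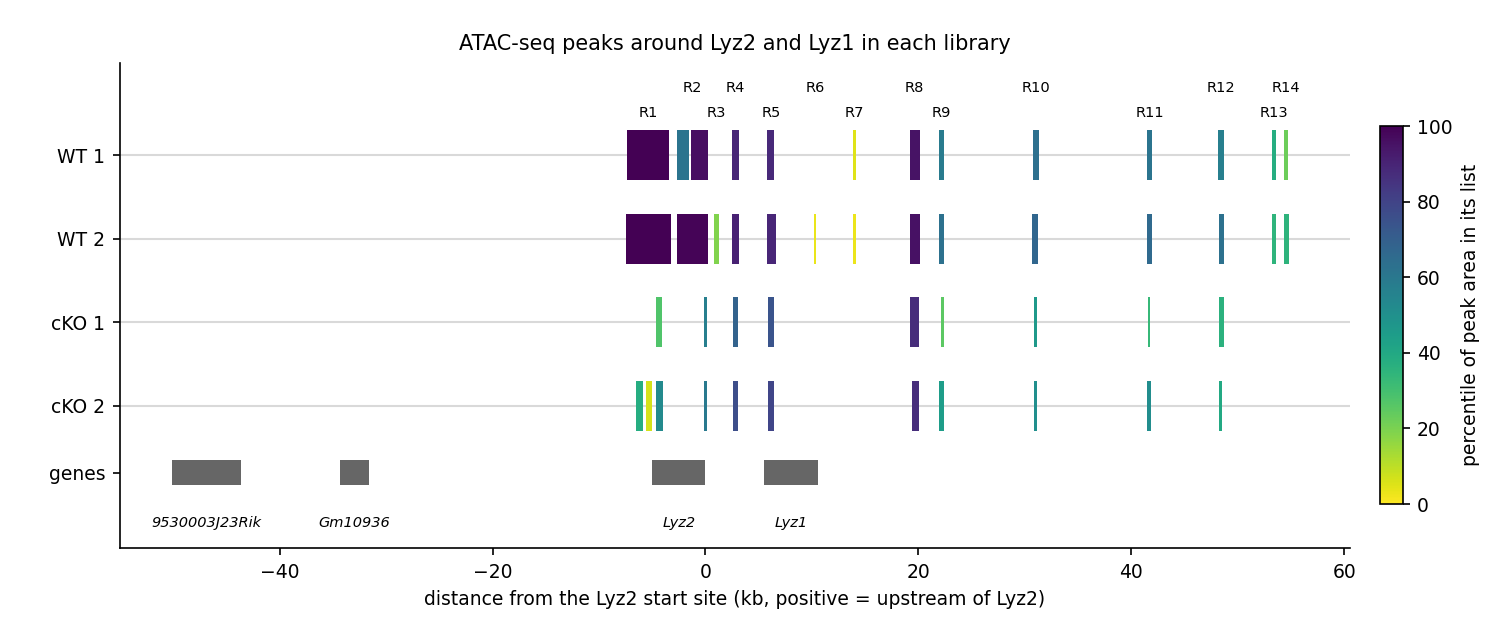
Peaks of the 4 libraries (rows) in the interval, by distance from the Lyz2 start site in kb, with darker colour for a higher percentile of the peak area within its list. Grey boxes are genes and R1 to R14 the merged regions. The wide dark peaks over Lyz2 in the WT rows are short or pale in the cKO rows, and the 47.5 kb at the left holds no peak in the 4 lists.

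The largest change was at R1 (chr10:117274854-117279104), which covers exons 3 and 4 of Lyz2 and 2477 bp beyond the 3′ end of the gene. In WT 1 it was a single peak of 3985 bp and in WT 2 a single peak of 4251 bp. By area these peaks ranked 13 of 55742 and 14 of 64939 in their lists, and by width 12 and 11. They were thus among the widest and strongest sites of WT BMDMs. In cKO 1 the region held 1 peak of 546 bp at percentile 27.5. In cKO 2 it held 3 separate peaks of 632, 536 and 624 bp at percentiles 38.1, 6.62 and 52.5. The relative area was 13.8 and 15.2 for WT and 0.591 and 2.18 for cKO, and the cKO mean was 0.0953 of the WT mean. The cKO values differed from each other by more than those of WT, but the genotypes stood far apart.

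The summits within R1 differed as well. The WT 1 summit lay 5485 bp and the WT 2 summit 6243 bp downstream of the Lyz2 start site, past the end of the gene. The strongest cKO peaks had their summits at 4403 and 4401 bp, inside exon 4, in its untranslated part. In cKO 2 the other 2 peaks had summits 6032 and 5491 bp downstream of the start site, near those of WT 2 and WT 1. The site in the last exon was thus called in both cKO libraries, and the sequence beyond the gene in cKO 2 alone, where WT had a domain running from intron 2 to the sequence downstream of Lyz2.

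R2 (chr10:117279621-117282581) covers exons 1 and 2 of Lyz2 and 260 bp upstream of its GENCODE start site. WT 1 had 2 peaks there, of 1646 and 1177 bp, and WT 2 had 1 of 2879 bp. cKO 1 and cKO 2 each had 1 peak, of 296 and 309 bp. The strongest peak ranked at percentiles 96.1 and 99.0 for WT and 57.4 and 59.4 for cKO. The relative area of R2 was 5.94 and 7.05 for WT and 1.21 and 1.28 for cKO, a ratio of means of 0.191. Here the cKO libraries lay close together and far below both WT libraries.

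The start site itself remained a peak in cKO, and it was the stretch inside the gene that no longer passed the limit. On the upstream side the peak over the start codon reached 339 and 306 bp past the codon in WT and 260 and 265 bp in cKO. On the downstream side it reached 1306 and 2572 bp into the gene in WT but 35 and 43 bp in cKO. From there to the next peak downstream the gap was 138 and 565 bp in WT and 3982 and 3898 bp in cKO. The cKO peaks thus ended close to the start codon, where LysM cre carries the Cre sequence, which mm10 does not hold. The first 45 coding bases of both genes are shown with the start codon in capitals, since the cKO peaks over Lyz2 ended within them.
Lyz2, chr10:117282198-117282242: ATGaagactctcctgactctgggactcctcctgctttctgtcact
Lyz1, chr10:117292794-117292838: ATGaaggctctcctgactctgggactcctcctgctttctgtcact
The values at the summit of this peak differed less than its extent. The summit −log10 p-value was 7.29 and 7.88 for WT and 5.52 and 5.90 for cKO, which put it at percentiles 90.0 and 91.3 for WT and 66.2 and 68.5 for cKO. Both WT summits lay in exon 1, 88 and 84 bp downstream of the GENCODE start site. The cKO summits lay 19 bp downstream of it and 48 bp upstream of it.

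**Figure D2:**
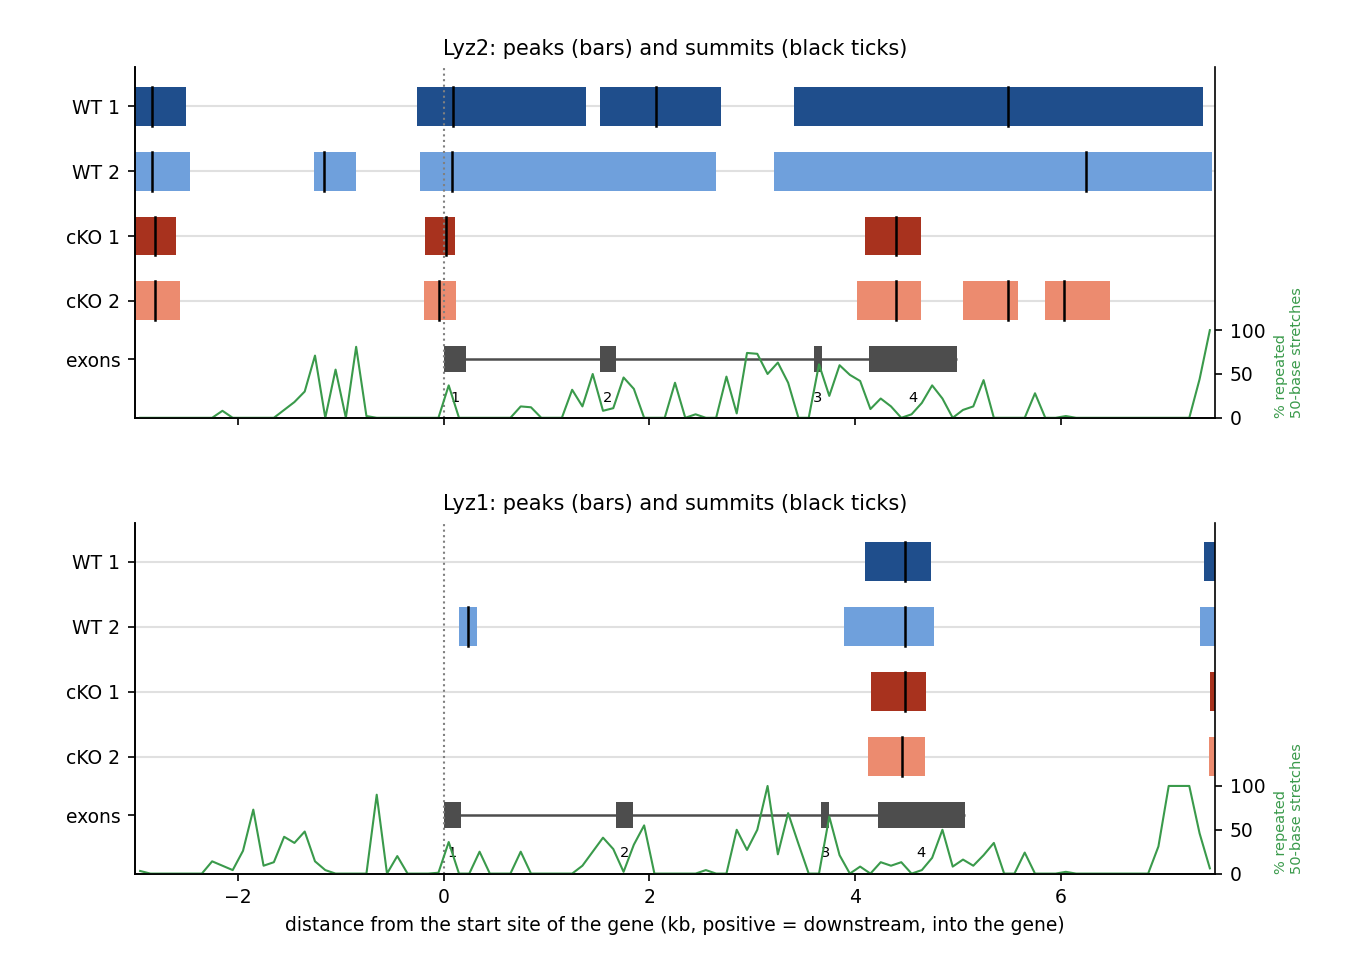
Peaks (bars) and their summits (black ticks) at Lyz2 (top) and Lyz1 (bottom) in each library, by distance from each gene's start site in kb, with exons numbered. The green line is the percent of 50-base stretches, in steps of 100 bp, that occur again elsewhere in the genome. Lyz2 is covered almost throughout in WT and at its start and last exon in cKO, while Lyz1 has its main peak at the last exon in the 4 libraries.

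Over the whole of Lyz2, peaks covered 83.2% and 88.7% of the gene body in WT but 13.2% and 15.0% in cKO (86.0 ± 3.89 and 14.1 ± 1.27, SD, n = 2). In both WT lists 99.7% of 21728 protein-coding genes were covered less than Lyz2, and in cKO 93.5% and 93.7% were. In the gene with 2 kb on both sides, the strongest peak of cKO (percentiles 57.4 and 59.4) was the one over the start site, whereas in WT it was the domain of R1. The direction depended on what was ranked. Taken per base of peak, the strongest Lyz2 peak ranked at percentiles 83.9 and 82.7 for WT and 88.7 and 86.7 for cKO. These are different peaks, R1 in WT and the short start site peak in cKO. Followed peak by peak, R1 ranked per base at 3.78 in cKO 1 and at most at 19.2 in cKO 2. The start site peak ranked at 67.9 and 51.9 in WT, below its cKO values. By the value at the summit the strongest Lyz2 peak ranked lower in cKO, as by area. Covered length, area and summit value were thus lower in cKO at Lyz2. Area per base was lower at R1 and higher at the start site peak.

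Lyz1 was covered far less than Lyz2 in WT and its strongest peak had a smaller area, and the difference between the genotypes in these measures was smaller. Its main region, R5 (chr10:117288104-117288978), lies over exon 4 and intron 3 of Lyz1. The peak was 644 and 875 bp wide in WT and 539 and 555 bp in cKO. Its percentile was 88.5 and 89.1 for WT and 74.2 and 79.6 for cKO (88.8 ± 0.424 and 76.9 ± 3.82, SD, n = 2). The relative area was 3.05 and 3.27 against 1.94 and 2.41, so that the cKO mean was 0.688 of the WT mean. Both cKO values were below both WT values, by a smaller factor than at R1 and R2. The summits were within 27 bp of each other in the 4 libraries.

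No peak was called over the start site of Lyz1 in these macrophages. R6 (chr10:117292541-117292716), over the end of exon 1 and the start of intron 1, was a peak of 176 bp at percentile 3.24 in WT 2 and was not called in the other 3 libraries. Of the Lyz1 gene body, 12.7% and 20.7% was covered in WT and 10.6% and 10.9% in cKO. The difference from Lyz2 in the strongest peak was 11.5 and 10.9 percentiles in favour of Lyz2 in WT. In cKO it was -16.8 and -20.2, so there the strongest peak of Lyz1 ranked above that of Lyz2. This switch held for the area of the strongest peak alone. By summit value (94.8 and 95.9 for Lyz1, 90.0 and 91.3 for Lyz2) and by area per base Lyz1 already ranked above Lyz2 in WT. The summed relative area of Lyz2 over that of Lyz1 was 0.928 in cKO 1 but 1.44 in cKO 2. For the covered bases of the gene body this ratio was 1.23 and 1.35, so Lyz2 stayed above Lyz1 in both. The change from WT to cKO was -41.6 percentiles at Lyz2 and -11.9 at Lyz1. Ranked per base the order was the opposite, with changes of 4.42 at Lyz2 and -5.95 at Lyz1, where the Lyz1 libraries of the 2 genotypes overlapped (97.4 and 85.3 in WT, 81.5 and 89.3 in cKO). The Lyz2 value sets the R1 peak of WT against the start site peak of cKO, as does the change in area.

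In cKO the last exon was the place where the 2 genes had a peak at the same position. The Lyz2 counterpart of R5, found by aligning the longest homologous block of the genes (3265 aligned bp, 93.0% identical), lies at chr10:117277643-117278501 and is 91.7% identical to R5. Of its 859 bases, peaks covered 859 and 859 in WT against 546 and 624 in cKO. The R1 peak that both cKO libraries had in exon 4 of Lyz2 was thus at the same place in the gene as the R5 peak of Lyz1. It ranked lower, at percentiles 27.5 and 52.5 in cKO 1 and cKO 2 against 74.2 and 79.6 for R5. In WT this stretch of Lyz2 was part of the wide R1 domain, not a separate peak. The 200 bases around the R5 summit held a PU.1, a C/EBP and an AP-1 match, motifs of factors that are active in macrophages. Of all 200-base summit windows of the WT 2 list, 11.3%, 12.2% and 15.6% held each of these. The matches are shown in capitals on the strand of the gene with 8 bases on both sides, because Lyz2 has each of them at the matching position.
Lyz1 PU.1, chr10:117288439-117288462: aaacagacACTTCCTCctcacaag
Lyz2 PU.1, chr10:117277977-117278000: aaacagagACTTCCTCctcacaag
Lyz1 C/EBP, chr10:117288406-117288429: atgctgtgTTGTGCAAagtctccc
Lyz2 C/EBP, chr10:117277944-117277967: atgctgtgTTGTGCAAagtctccc
Lyz1 AP-1, chr10:117288296-117288318: ccaggaagTGATTCAcattgact
Lyz2 AP-1, chr10:117277834-117277856: ccaggaagTGATTCAcattgagt
A match of letters is not a measured binding site. For R1, R2, R4 and R8 only the summit of the highest ranked peak was searched, that of WT 2, and its 200 bases held 0 matches to the 5 motifs. The cKO summits of R1 and R2 were not searched. Those in exon 4 of Lyz2 lie next to the Lyz2 matches shown here, and those of R2 next to the RUNX match before the start site.

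The likeness of the genes also bears on how reads can be placed. Of the 50-base stretches of the Lyz2 gene body, 20.5% occurred again in the genome, and of those of Lyz1 16.4%. The share was 15.3% in R1, 10.3% in R2, 7.75% in R5 and 1.49% in R4, and 0% in R8 to R13. How reads that match both genes were treated is not stated. The shared regions without repeated stretches, R8 to R12, had relative areas in cKO of 0.542 to 0.702 of WT, against 0.0953 for R1 and 0.191 for R2. In cKO 1 and cKO 2 the share was 15.0% and 14.2% in the peak over the Lyz2 start site. In the exon 4 peak it was 11.3% and 12.2%. The part of repeated stretches in the Lyz2 change was not tested.

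Between the genes and upstream of them the peaks were ordinary in width and differed less. R4 (chr10:117284792-117285512), 2.8 kb upstream of the Lyz2 start site, ranked at percentiles 89.4 and 91.0 for WT and 68.7 and 76.2 for cKO, with a relative area in cKO of 0.559 of WT. R8 (chr10:117301493-117302450), 9.1 kb upstream of the Lyz1 start site and 19.6 kb upstream of that of Lyz2, ranked at 95.1 and 95.6 for WT and 87.3 and 87.1 for cKO, with a ratio of 0.702. R8 was the highest ranked region of the interval in cKO, whereas R1 was in WT. Its summit was at the same base, 117301938, in the 4 libraries.

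Farther upstream, 4 weaker regions from 11.6 to 37.9 kb before the Lyz1 start site were kept in the 4 libraries. R9 ranked at percentiles 58.6 and 63.1 for WT and 25.0 and 44.9 for cKO. R10 ranked at 63.3 and 67.2 for WT and 46.3 and 50.4 for cKO. R11 ranked at 61.7 and 65.8 for WT and 33.2 and 51.5 for cKO. R12 ranked at 57.3 and 63.1 for WT and 36.3 and 39.6 for cKO, so that in each of the 4 regions the genotypes stood apart. Their relative areas in cKO were 0.542 to 0.647 of WT, and the spread between the cKO libraries was widest at R9 and R11.

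The 3 lost regions were weak in WT. R7, 3.5 kb upstream of Lyz1, ranked at percentiles 4.73 and 3.07. R13 and R14, at the far end of the interval, 42.9 and 44.0 kb upstream of Lyz1, ranked at 37.9 and 35.0 and at 22.6 and 35.4. R3, a peak of 415 bp at percentile 18.8, stood 1.1 kb upstream of Lyz2 in WT 2 alone. The loss of such low peaks says only that they were under the limit of the peak caller in cKO.

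**Figure D3:**
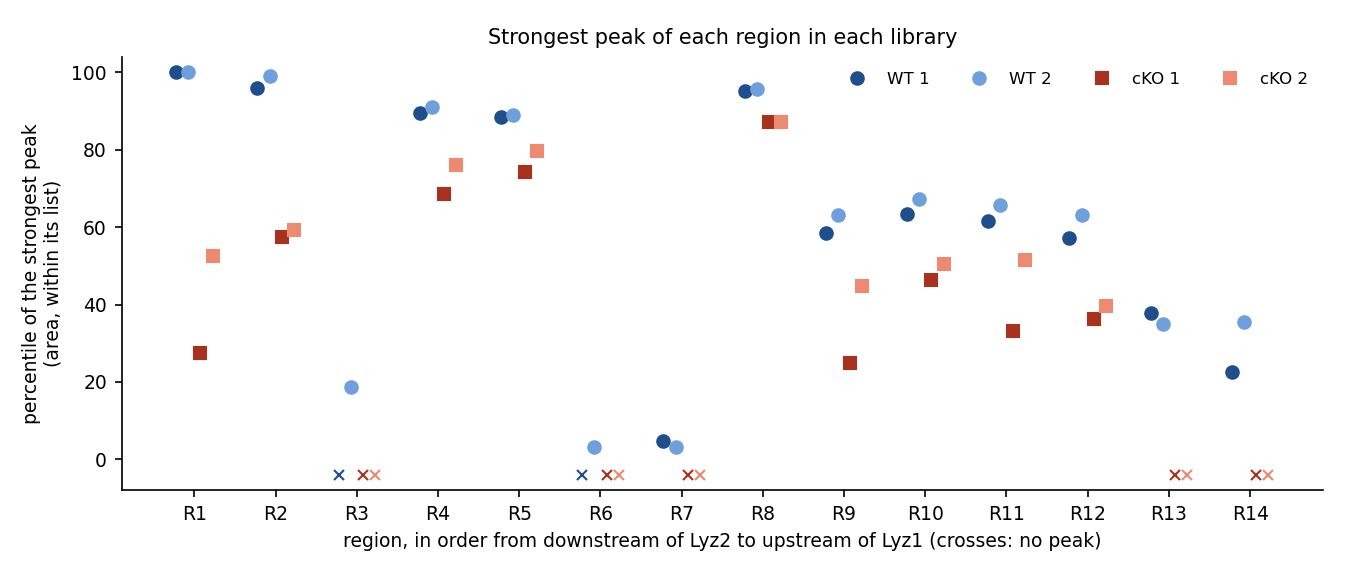
Percentile of the strongest peak of each region R1 to R14 within its list, with WT libraries as circles, cKO libraries as squares and crosses for no peak. In the 9 regions called in the 4 libraries, both squares lie below both circles, with the widest separation at R1 and R2.

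The lysozyme regions were then set beside the other shared regions of the genome. The log2 ratio of the relative area, cKO mean over WT mean, had a median of -0.00 and an SD of 0.47 over the 44820 shared regions. The median of the 9 lysozyme regions was -0.81. R1 had the lowest value of all shared regions, -3.39, and R2 was 5th from the lowest, with -2.39. The other 7 were within the bulk of the distribution, from -0.88 (R9) to -0.51 (R8), with 4.44% and 13.6% of the shared regions below them. The 2 regions over Lyz2 were thus apart from the remaining 7, although these also lay on the low side. Since Lyz2 was chosen for a WT peak reduced in the knockout, these ranks are given for scale. The 5164 regions lost in cKO have no ratio and are not among those ranked.

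**Figure D4:**
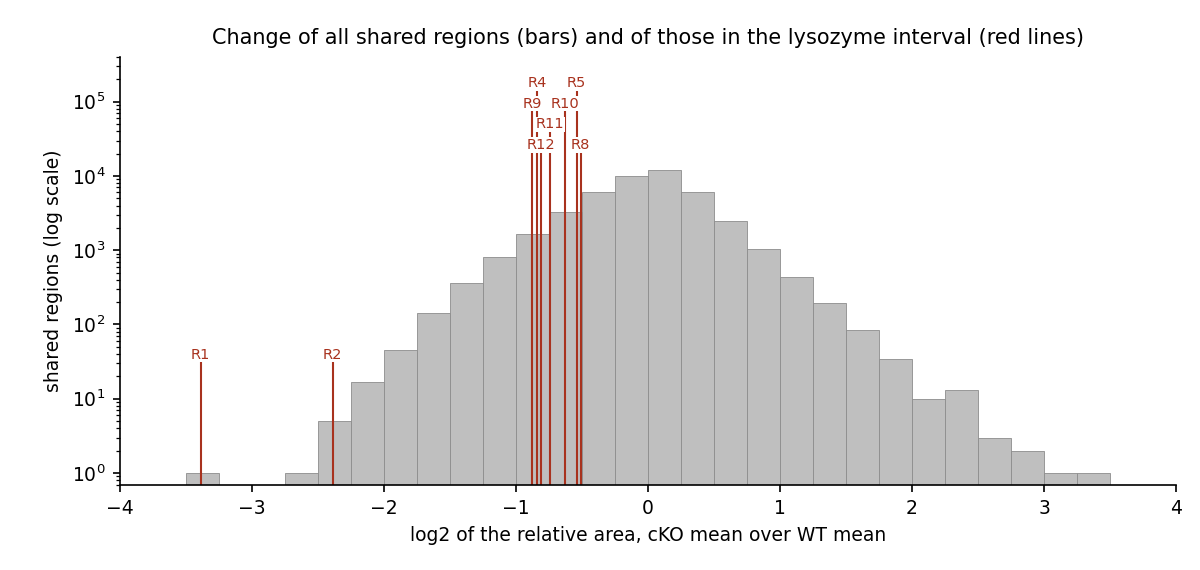
Number of shared regions (log scale) by log2 ratio of the relative area, cKO mean over WT mean, in bins of 0.25, with the 9 shared lysozyme regions as red lines. R1 and R2 lie in the extreme left tail, and the other 7 lie between -0.88 and -0.51.

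Outside the interval the change was smaller. In the 250 kb below it, 11 regions were shared, of which 4 were lower and 0 higher in cKO, with a median log2 ratio of -0.08. In the 250 kb above it, 7 were shared, of which 3 were lower and 0 higher, with a median of -0.18. These flanks held 0 lost and 0 gained regions, of 17 regions below the interval and 10 above it. Over the genome 35.1% of the shared regions were lower and 22.2% higher, and 7.25% of all regions were lost and 3.72% gained. With so few regions in the flanks, the counts are given for scale. Yeats4 and Cpsf6, the nearest genes beyond the interval, had start site peaks at percentiles 92.6 and 93.8 for WT and 92.6 and 93.2 for cKO (Yeats4), and 89.9 and 91.3 for WT and 79.0 and 87.5 for cKO (Cpsf6). The other genes inside the interval are 9530003J23Rik, a lysozyme C-like gene, and the pseudogene Gm10936. They had no peak in any library, and no list held a peak in the 47.5 kb from the lower end of the interval to R1.

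Lyz2 and Lyz1 were compared with the rest of the lysozyme family, several of whose other genes act in sperm (Lyzl4, Spaca3), while Lalba encodes alpha-lactalbumin, a subunit of the lactose synthase of milk. Of 10 family genes, 4 had a peak in the gene or within 2 kb in the 4 libraries, and 5 had none. Of the 4, the strongest peak was lower in both cKO lists for 3 (Lyz2, Lyz1 and Lalba) and higher for 0, against 34.9% lower and 22.7% higher of 13647 genes with a peak in the 4 libraries. Lyz2 and Lyz1 were chosen on this contrast, so the count says nothing of the family and the shares are given for scale. Lalba ranked at percentiles 84.2 and 89.0 for WT and 24.7 and 37.8 for cKO, and Lyzl4 at 96.2 and 94.1 for WT and 83.6 and 94.3 for cKO, where the genotypes overlapped. The last gene with a peak, Lyzl1, had it in WT 2 alone, at percentile 8.84.

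Genes for bacterial killing and granule proteins of myeloid cells showed no shared direction. Of 25 genes, 16 had a peak in the 4 libraries, 6 of these were lower in both cKO lists and 5 higher, and 6 genes had no peak. The shares over all genes with a peak in the 4 libraries, 34.9% lower and 22.7% higher, are of similar size. The median change of the 16 was -0.142 percentiles, against -0.355 over the 13647 genes. Ctsd, the lysosomal protease cathepsin D, ranked at 93.4 and 98.6 for WT and 100 and 100 for cKO. Ncf1 and Ncf4, subunits of the phagocyte NADPH oxidase, ranked at 94.7, 97.6, 95.8 and 97.4 and at 93.5, 93.7, 93.3 and 95.5 in WT 1, WT 2, cKO 1 and cKO 2. Slc11a1, a metal transporter of the phagosome, ranked at 91.3 and 92.8 for WT and 93.1 and 93.7 for cKO. These 4 genes thus ranked at 91.3 or above in each library, cKO included.

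**Figure D5:**
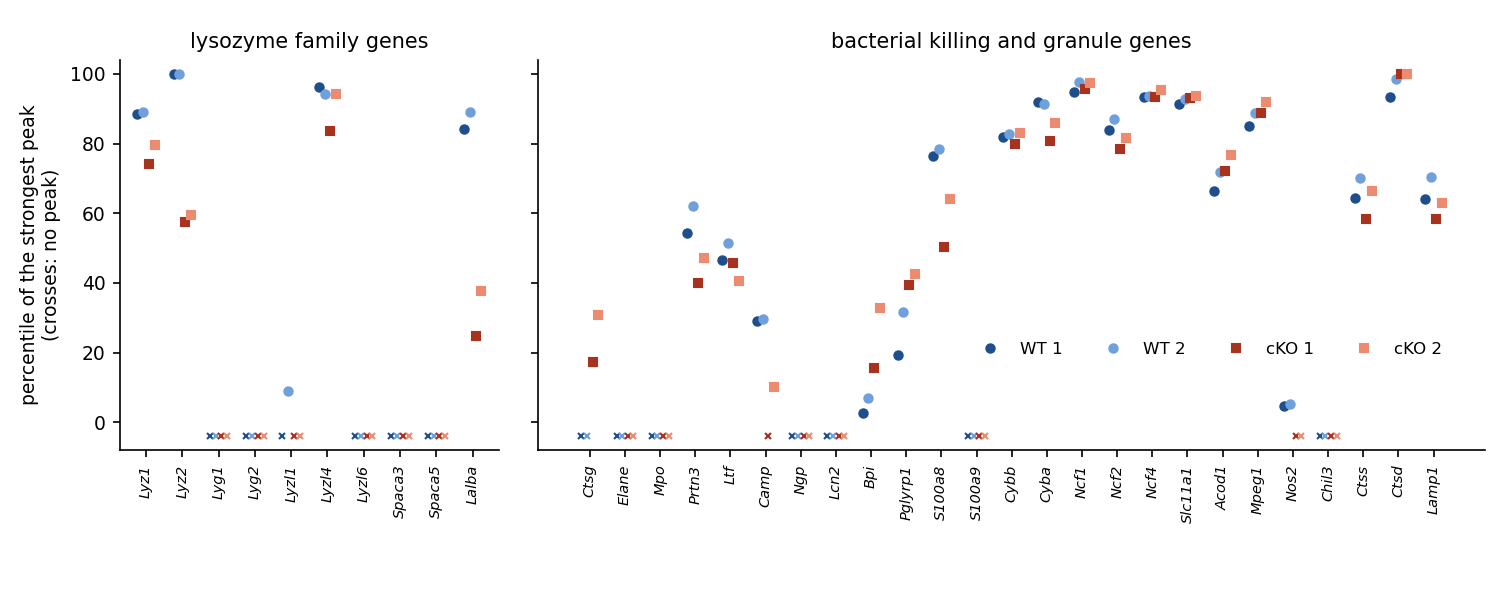
Percentile of the strongest peak in the gene or within 2 kb for 10 lysozyme family genes (left) and 25 bacterial killing and granule genes (right), with WT libraries as circles, cKO libraries as squares and crosses for no peak. Lyz2, Lyz1 and Lalba have both squares below both circles, while the granule genes move either way.

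Genes with a pattern like that of the lysozyme genes were sought by the Euclidean distance between the percentiles of the strongest peak over the 4 libraries. The nearest to Lyz1 were Notch1 (distance 2.05), Tmcc2 (2.13) and Npl (2.17). Those to Lyz2 were Tmem158 (11.7), Pde5a (15.4) and Cd300lb (17.6). No gene came as near to Lyz2 as those to Lyz1: Tmem158 ranked at 90.6 and 94.7 for WT and 57.4 and 63.9 for cKO, against 100 and 100 and 57.4 and 59.4 for Lyz2.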

How the data were processed

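ATAC-seq libraries were sequenced as read pairs. Per the study's methods, the authors aligned them to mm10 with Bowtie2 2.5.1 and called peaks with Genrich at default settings. The deposited lists are separate, 1 for each library. Duplicate removal, multi-mapping reads and a Tn5 shift were not described. The deposited signal column is the peak area, the −log10 p-value, also as deposited, is that of the summit, and a deposited score (a capped form of the area) was not used. The lowest area was 200. Read depth is unknown, so no counting error is given.

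Peaks overlapping by at least 1 bp were merged with Python (pandas 2.3.3, numpy 2.4.6) and calls were tested on simulated lists. Genes are from GENCODE M21 (basic) and sequences and promoters from RefSeq GRCm38.p6, aligned with Biopython 1.88 and blastn 2.17.0. A region was called where a library had a peak in it; lower and higher mean that both cKO values lay outside both WT values. The genes were chosen on these values, so no test is given. Members, gene lists and markers were chosen with earlier results of these data known. The named genes were Lyz1, Lyz2, H3f3a, H3f3b, those in the interval, the 4 highest of each list and the 3 nearest in pattern. Elane, Mpo, Prtn3, Ctsg, S100a8 and Ly6g were also named, outside that rule. Lyzl1, Yeats4 and Cpsf6 were added after their values were seen, and so were the relative area and the 250 kb flanks. Alternatives were a higher area limit, lists of equal length, other overlaps, ranked measures and windows, and leaving out each library.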

Additional observations from a re-analysis of the deposited data

How the results depend on the processing

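The direction of each difference, cKO minus WT, was kept under the alternatives except when peaks were ranked by area per base: the change of the strongest Lyz2 peak then became 4.42 percentiles and Lyz2 minus Lyz1 became 10.4, with -5.95 for Lyz1. That Lyz2 change sets R1 in WT against the start site peak in cKO, and R1 itself ranked lower per base in cKO. Among peaks above the median area of their list the changes were -83.2 for Lyz2, -23.8 for Lyz1 and -59.4 for the difference, and 4 of 4 shared regions were lower. Ranking anew within the kept peaks stretches each percentile difference by construction. These larger changes are therefore the main ones on another scale and add no support. With lists of equal length the changes were -45.1 (Lyz2) and -33.2 (difference), and the peak number differed by -2.00. By the summit value they were -23.3 (Lyz2) and -12.7 (difference). Called only where peaks covered at least 50% of a region, 6 regions were lost and 4 of 4 shared ones lower. With 20 kb margins the interval had -1.50 peaks, -6737 bp covered and 1 lost region. In the Lyz2 gene body alone -3584.5 bp were covered. Leaving out each library in turn gave 3 to 5 lost regions, 5 of them without WT 1, where R3 and R6 then count as lost. It could not reverse a direction, since the libraries of the genotypes did not overlap in these differences. Without WT 2 the Lyz1 covered length differed by -97.0 bp and without WT 1 by -504 bp, against -300 bp. Relative area, chosen after seeing the data, gave log2 changes of -3.55 (Lyz2) and -0.55 (Lyz1). No replicate block was fitted because no result came from a test. Between libraries of the same replicate number the Lyz2 change was -42.6 and -40.6. Sites near the limit of the peak caller are limited by depth, which is unknown.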
